A study of Homo sapiens with 9 samples.

Results

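The genes described here are KAT8, which encodes the histone acetyltransferase MOF (hMOF in human cells), and MSL1, MSL2 and MSL3, which encode the proteins that hold MOF in the MSL complex. They were found on the array as the probe sets whose platform annotation gives exactly 1 gene symbol and that symbol is one of these 4. This gave 4 of the 19775 genes that have a probe set of their own, and 9 of 54675 probe sets, a probe set being a group of short oligonucleotides whose brightness is summarised as 1 signal: 2 for KAT8, 3 for MSL1, 1 for MSL2 and 3 for MSL3. No probe set with several symbols named a member. All 9 are described, and 8 of them were among the 27307 probe sets bright enough to be tested.

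The RNA was from HEK293, a human embryonic kidney cell line that is easily transfected, in 3 groups of 3 arrays. The groups were wild type cells, described as untreated, cells transfected with plasmids encoding hMOF (overexpression), and cells given small interfering RNA against hMOF (knockdown). The design text also names cells treated with EGFP double-stranded RNA (spelled EGPF there) as a control, but none of the 9 samples carries that label. Whether any sample labelled wild type was treated in that way cannot be told from the labels, which affects what both comparisons with wild type mean. If wild type cells were untreated, as the design text has it, the act of transfection and the change in MOF cannot be told apart. The sources used here do not give the time after transfection, the plasmid's insert or the small interfering RNA's sequence. Whether replicates were separate cultures is not said, and every p-value therefore measures a spread between samples that may be only technical.

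MOF acetylates lysine 16 of histone H4, a mark that loosens the packing of nucleosomes. It works in 2 complexes: in the MSL complex it is bound by the scaffold protein MSL1, together with the RING finger ubiquitin ligase MSL2 and the chromodomain protein MSL3, while in the NSL complex it is held by KANSL1 with KANSL2, KANSL3 and several shared factors. In fruit flies the MSL complex raises transcription of the male X chromosome; in human cells it supplies much of the acetylation of lysine 16, and the NSL complex acts mainly at promoters of housekeeping genes.

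KAT8 transcript fell after knockdown at both of its probe sets, to 16.6% and 33.4% of the mean wild type signal. Of the complex partners, MSL1 rose after knockdown at 1 of its 2 tested probe sets (1.5-fold), MSL3 fell at 1 of 3 (1.56-fold, a call lost when any 1 of the 6 arrays compared was left out), and MSL2 and the remaining probe sets did not pass the test. No member passed the test after overexpression in the fit without a term for replicate, although KAT8 and an MSL3 probe set passed when replicate 1 had a term of its own. For MSL1 after knockdown, and for MSL3 after both treatments, the 2 brightest probe sets of the gene changed by different amounts. The 2 KAT8 probe sets also fell by different amounts after knockdown, with 1 of them too dim there for its fall to be well measured. The exact permutation test of such differences cannot pass with 3 against 3 arrays, so they are given as descriptions.

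**Figure D1:**
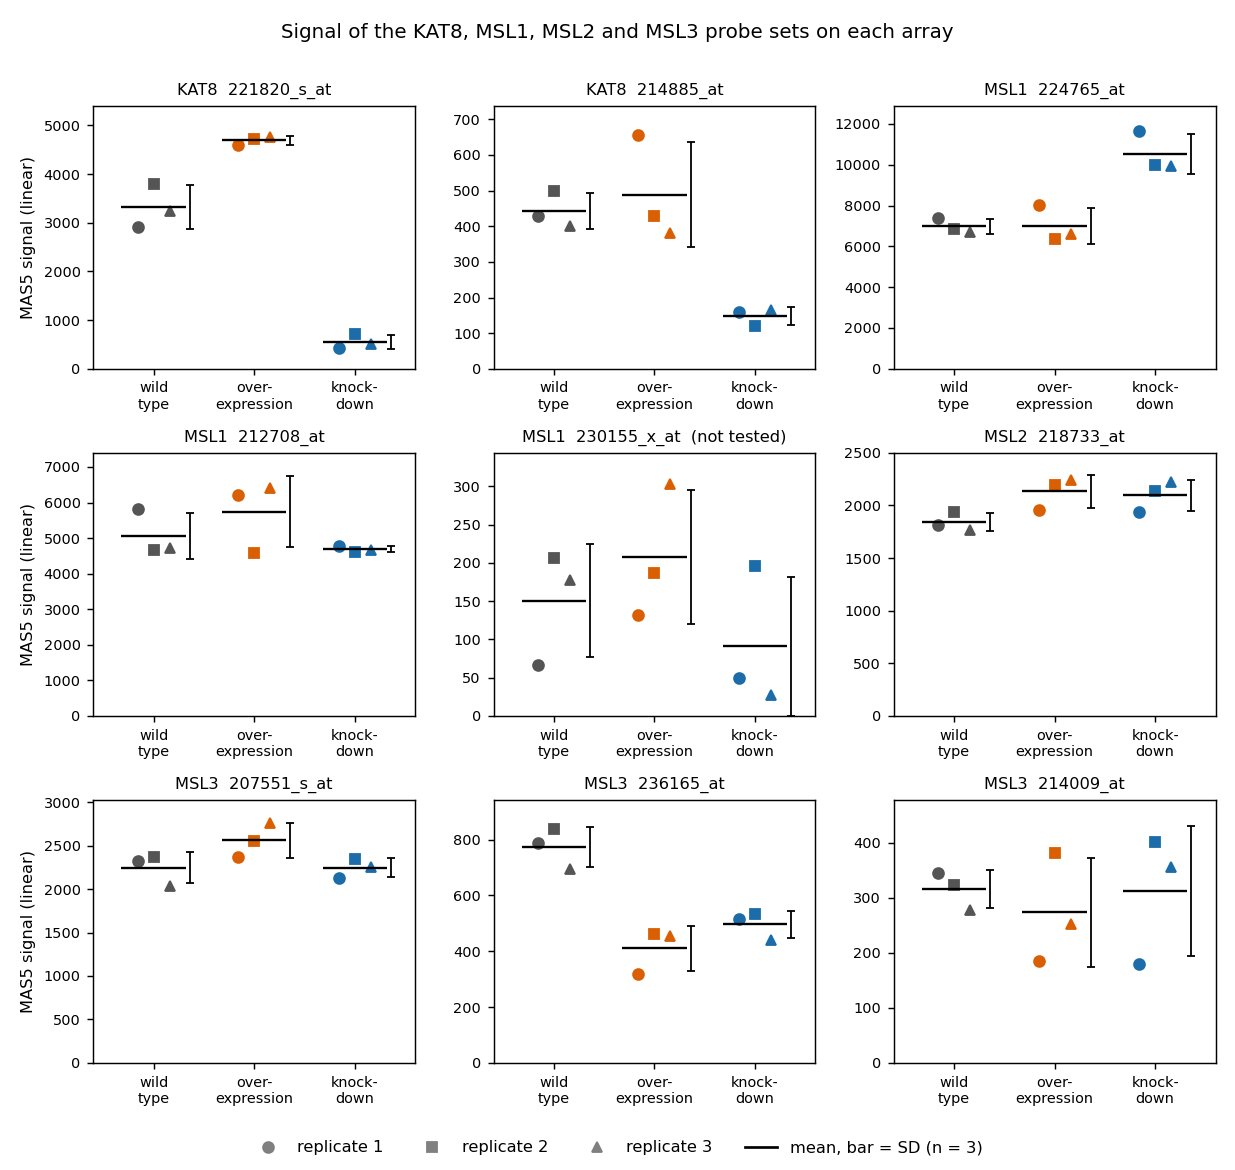
Deposited MAS5 signal (linear, axis from 0) of the 9 member probe sets on each of the 9 arrays, with the mean and SD of each group of 3. The KAT8 signals of the knockdown arrays lie below all others, MSL1 224765_at lies between 9924.4 and 11657.9 in knockdown and at most at 8011.6 elsewhere, and MSL3 236165_at is lower in both transfected groups than in wild type.

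Median signals of the 9 arrays ran from 190.1 to 219.7, and arrays of the same group correlated at 0.973 to 0.985 in log2 signal over the probe sets tested. All 7 markers listed for the HEK293 line, among them vimentin and the neurofilament genes NEFL, NEFM and INA, were bright enough to be tested. None of 4 blood cell markers was, and 1 each of 3 endothelial and 4 fibroblast markers was (PECAM1 and COL1A1). The summed signal of the fibroblast list ran from 2474.1 to 2779 in wild type, from 2233.8 to 3467 in overexpression and from 1621.9 to 2255.9 in knockdown arrays, most of it COL1A1, and its part in the results was not tested. The summed HEK293 list ran from 101658 to 106865 in wild type, from 94106 to 112379 in overexpression and from 97953.1 to 111886 in knockdown arrays, most of it vimentin. Within that list the means of PAX2, KRT8, INA and KRT18 had the order of KAT8, lowest in knockdown and highest in overexpression. Vimentin had the reverse order (78258 ± 1248, 70091 ± 7945 and 79350 ± 5918 in wild type, overexpression and knockdown). NEFL (7640.6 ± 68.4, 8280.5 ± 125.7 and 7914.7 ± 202.2) and NEFM (4470.8 ± 493.5, 5421.5 ± 561.8 and 4984.8 ± 560.4) were lowest in wild type and highest in overexpression. PAX2 had means of 414.6 ± 62.5, 618.2 ± 55.3 and 195.2 ± 13.8 (SD, n = 3 each) in wild type, overexpression and knockdown, KRT8 had 954.7 ± 69.2, 1460.4 ± 171.2 and 642.4 ± 67.9, and INA had 3511.2 ± 455.7, 5007.8 ± 789.3 and 2611.1 ± 263.9. KRT18 had 9432.5 ± 883.7, 11124.3 ± 457.3 and 8173.4 ± 573.3. Against wild type PAX2 and KRT8 fell after knockdown (limma adjusted p = 0.00513 and 0.0223). INA and KRT18 did not pass (limma adjusted p = 0.062 and 0.157), and none of these genes passed after overexpression. Between knockdown and overexpression PAX2, KRT8, INA and KRT18 all passed (limma adjusted p = 0.000611, 0.000681, 0.00204 and 0.00912). Vimentin, NEFL and NEFM did not pass there (limma adjusted p = 0.168, 0.588 and 0.547). The part of the HEK293 list genes in the results was not tested. The 3 arrays numbered replicate 1, 1 of each group, stood apart in the added poly-A control transcripts, which were 2.22-fold brighter on the other 6 arrays with no overlap. Member values with a term for replicate 1 are therefore given where they change a call.

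KAT8 is the gene that both treatments target, so its probe sets also check the labels. The probe set 221820_s_at read 2909.5, 3796.8 and 3248.7 in the wild type replicates 1, 2 and 3. It read 4594.3, 4727.2 and 4763 after overexpression, and 432, 705.8 and 517.1 after knockdown. The 3 groups did not overlap, with knockdown lowest and overexpression highest, and the labels and the signals of this probe set thus run the same way. The knockdown replicates held 13.0%, 21.3% and 15.6% of the mean wild type signal.

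Against wild type the knockdown value was 6.10-fold lower (95% confidence interval 4.71 to 7.89), a log2 fold change of -2.61 (limma adjusted p = 4.72e-05, SE 0.17, n = 3 per group). By the exact permutation test (two-sided) p was 0.1, below which 3 against 3 arrays cannot go. Of the 27307 probe sets tested, 15.7% passed the limma threshold in this comparison, 8.89% lower and 6.82% higher (15.7% is 4289 probe sets, and 7637 passed with the replicate number as a block). By size, this KAT8 probe set was in place 4 among all falls. In bulk RNA, the share of cells that took up the small interfering RNA and the depth of the fall in each such cell cannot be told apart.

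Against overexpression the knockdown signal was 8.67-fold lower (95% confidence interval 6.71 to 11.2, log2 -3.12, SE 0.17, limma adjusted p = 9.2e-06), place 3 among the falls of that comparison, in which 14.5% of probe sets passed (3963, and 7334 with the replicate block). Each pair of comparisons shares the 3 arrays of a group, so none is independent of the others.

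The rise of 221820_s_at after overexpression was small. The mean was 4694.8 ± 88.9 (SD, n = 3) against 3318.3 ± 447.7 (SD, n = 3) in wild type, a fold change of 1.42 (95% confidence interval 1.10 to 1.84, log2 0.51, SE 0.17). The test was not passed (limma adjusted p = 0.259, unadjusted p = 0.0116), in a comparison where 0.476% of all probe sets passed (130). All 3 overexpression arrays lay above all 3 wild type arrays, as at 9.92% of probe sets. With the term for replicate 1 the same change had a limma adjusted p of 0.0478 (SE 0.13), in a fit in which 1109 probe sets passed. Matched by replicate number, the log2 differences were 0.66, 0.32 and 0.55. The sources used here do not say whether either probe set lies in the sequence carried by the plasmid, so this value is not a measure of how much MOF transcript the plasmid made.

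The second KAT8 probe set, 214885_at, read 428.3, 498.9 and 400.7 in wild type, 656.6, 428.3 and 380.8 after overexpression, and 159.5, 119 and 165.6 after knockdown. The overexpression arrays overlapped the wild type arrays, with replicate 1 alone above them, and the log2 fold change was 0.11 (SE 0.26, limma adjusted p = 0.91). The knockdown arrays lay below every other array, 3.0-fold under wild type (95% confidence interval 2.02 to 4.44, log2 -1.58, SE 0.26, limma adjusted p = 0.00296) and 3.23-fold under overexpression (log2 -1.69, SE 0.26, limma adjusted p = 0.00225). These 3 knockdown signals were under 188, the mean level at which a probe set entered the test, where MAS5 signals are less precise.

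Unequal change of the 2 KAT8 probe sets is not shown by these arrays. The knockdown signals of 214885_at lay under the level of 188, and the size of its fall is not well measured there. Among the blood cell genes too dim to be tested, CD3E read 76.7 to 204.2, while PTPRC, CD14 and LYZ reached at most 77.8, 115.5 and 144.2. On each array the log2 signal of 221820_s_at exceeded that of 214885_at by 2.76, 2.93 and 3.02 in wild type and by 1.43, 2.56 and 1.64 in knockdown. This was a drop of 1.03 on the log2 scale from wild type, and the drop from overexpression was 1.43. Both carry the limit of the dim knockdown signals. Across the 3 genes with more than 1 tested probe set, 15 such differences were compared by the exact two-sided permutation test. The smallest p it allows with 3 against 3 arrays is 0.1, which after Benjamini-Hochberg adjustment over the 15 is 0.188, so none could pass and they are given as descriptions.

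**Figure D2:**
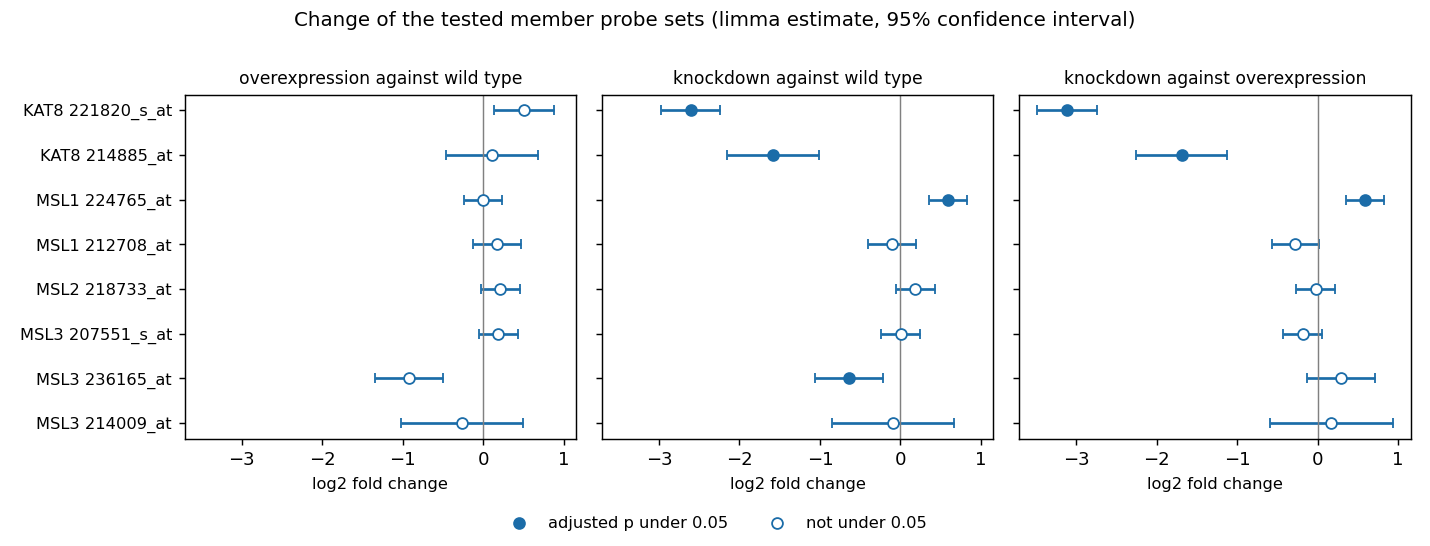
Log2 fold change (limma estimate with 95% confidence interval, n = 3 arrays per group) of the 8 tested member probe sets in the 3 comparisons, filled where the adjusted p is under 0.05. No point is filled for overexpression against wild type, 4 are for knockdown against wild type and 3 for knockdown against overexpression.

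MSL1 is the scaffold of the complex: its carboxy-terminal PEHE domain binds MOF, a fold shared with KANSL1 of the NSL complex. Its probe set 224765_at read 7389.9, 6836.7 and 6698.3 in wild type, 8011.6, 6348.6 and 6629 after overexpression and 11657.9, 9962.2 and 9924.4 after knockdown. The knockdown arrays lay above all 6 others, while wild type and overexpression overlapped. The means were 6975 ± 366 (SD, n = 3), 6996.4 ± 890.3 (SD, n = 3) and 10515 ± 990.1 (SD, n = 3).

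The rise of this MSL1 probe set after knockdown was 1.5-fold against wild type (95% confidence interval 1.28 to 1.77, log2 0.59, SE 0.11, limma adjusted p = 0.00488) and 1.51-fold against overexpression (95% confidence interval 1.28 to 1.77, log2 0.59, SE 0.11, limma adjusted p = 0.00502). Matched by replicate number, the log2 differences from wild type were 0.66, 0.54 and 0.57. Leaving out any 1 of the 6 arrays compared kept the call, with limma adjusted p of at most 0.0252 for knockdown against wild type and 0.0279 for knockdown against overexpression. By size it was in place 1936 among the rises against wild type, so changes of this order were common after knockdown. After overexpression the value was 0.00 on the log2 scale (95% confidence interval -0.24 to 0.23, limma adjusted p = 0.997).

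The other tested MSL1 probe set, 212708_at, did not show that rise. It read 5817.4, 4657.3 and 4723.6 in wild type, 6206.5, 4593.2 and 6413.4 after overexpression and 4791.8, 4617.3 and 4666.5 after knockdown, with all 3 groups overlapping. Its log2 fold change was -0.10 after knockdown (95% confidence interval -0.40 to 0.19, limma adjusted p = 0.65) and 0.17 after overexpression (95% confidence interval -0.12 to 0.47, limma adjusted p = 0.655). The interval after knockdown ends below the lower end of that of 224765_at, which is 0.36. Between knockdown and overexpression it was -0.27 (SE 0.13, limma adjusted p = 0.201), and this passed only without overexpression replicate 2 (limma adjusted p = 0.0391).

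On the same array, 224765_at exceeded 212708_at by 0.35, 0.55 and 0.50 on the log2 scale in wild type, by 0.37, 0.47 and 0.05 after overexpression and by 1.28, 1.11 and 1.09 after knockdown. The knockdown arrays were apart from the rest, and the change of one probe set exceeded that of the other by 0.69 against wild type and by 0.87 against overexpression. The sources used here do not say where along the MSL1 gene each probe set binds. A statement that MSL1 rose after knockdown therefore holds for 1 of its 2 tested probe sets.

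The third MSL1 probe set, 230155_x_at, of a type whose oligonucleotides can bind transcripts of other genes, was too dim to be tested. It read between 66.9 and 207 in wild type, between 131.8 and 303.3 after overexpression and between 27.9 and 195.4 after knockdown, with overlap throughout. In a fit over all 54613 probe sets without the filter on signal it passed in no comparison (limma adjusted p from 0.272 to 0.883), and the 95% confidence interval of its change after knockdown, was wide, from -2.60 to 0.51 on the log2 scale.

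MSL2, the ubiquitin ligase subunit, binds MSL1 and modifies histone H2B as well as its own partners. Its only probe set, 218733_at, read 1814.1, 1936.6 and 1771.3 in wild type, 1958.4, 2198.9 and 2246 after overexpression and 1934.7, 2135.5 and 2221.4 after knockdown. All overexpression arrays were above wild type by a narrow gap, and the knockdown arrays overlapped them at a single array. The change was 1.16-fold after overexpression (95% confidence interval 0.981 to 1.37, log2 0.21, SE 0.11, limma adjusted p = 0.472) and 1.14-fold after knockdown (95% confidence interval 0.964 to 1.34, log2 0.19, SE 0.11, limma adjusted p = 0.276). Between knockdown and overexpression it was -0.03 (95% confidence interval -0.27 to 0.21). None of the 3 comparisons passed, and the intervals leave room for changes of up to about those bounds.

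MSL3 carries the chromodomain through which the complex binds histone H4 methylated at another lysine, and it docks on MSL1 beside MOF. Its probe set 207551_s_at read 2325.3, 2372.5 and 2040.1 in wild type, 2365.9, 2546.9 and 2763.9 after overexpression and 2130.2, 2347.3 and 2257.6 after knockdown. Knockdown and wild type overlapped, with a log2 fold change of 0.00 (95% confidence interval -0.24 to 0.24, limma adjusted p = 0.995). The overexpression arrays were slightly higher, by 0.19 against wild type (95% confidence interval -0.05 to 0.43, limma adjusted p = 0.528), and lay above all knockdown arrays, a difference of -0.19 for knockdown that did not pass (95% confidence interval -0.43 to 0.05, limma adjusted p = 0.286).

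A second MSL3 probe set, 236165_at, behaved differently. It read 788.1, 836.7 and 693.7 in wild type, 318, 461.9 and 453.2 after overexpression and 516.6, 532.3 and 439.7 after knockdown. All 6 transfected arrays lay between 318 and 532.3, below the lowest wild type array at 693.7. The fall after knockdown was 1.56-fold (95% confidence interval 1.16 to 2.09, log2 -0.64, SE 0.19, limma adjusted p = 0.0458), and the log2 differences matched by replicate number were -0.61, -0.65 and -0.66.

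This knockdown call was close to the threshold. It was lost in all 6 fits that left out 1 array, with limma adjusted p from 0.0681 without wild type replicate 3 to 0.144 without wild type replicate 2, and in the fit without a filter on signal (limma adjusted p = 0.0985). It held with the replicate block (limma adjusted p = 0.0281) and with the term for replicate 1 (limma adjusted p = 0.0259).

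After overexpression the same MSL3 probe set was 1.90-fold lower than in wild type (95% confidence interval 1.42 to 2.55, log2 -0.93, SE 0.19). This missed the threshold (limma adjusted p = 0.0785, unadjusted p = 0.000535) and passed with the term for replicate 1 (limma adjusted p = 0.0223). By size it was in place 71 among the falls of that comparison. The groups did not overlap in the lower direction, as at 7.67% of all probe sets. The difference between knockdown and overexpression was 0.29 (95% confidence interval -0.14 to 0.71, limma adjusted p = 0.359), so the 2 treatments were not shown to differ at this probe set. Both comparisons rest on the same 3 wild type arrays.

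The third MSL3 probe set, 214009_at, read between 277.9 and 345.8 in wild type, between 185.8 and 382.2 after overexpression and between 179.5 and 401.2 after knockdown, and its groups overlapped in all comparisons. Its log2 fold changes were -0.26 after overexpression and -0.09 after knockdown with an SE of 0.35 (limma adjusted p = 0.812 and 0.889), so falls of the size seen at 236165_at lie inside its intervals. Replicate 1 was the lowest array in both transfected groups, and the highest of the 3 in wild type.

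Array by array, 207551_s_at exceeded 236165_at by 1.56, 1.5 and 1.55 on the log2 scale in wild type, an SD of 0.03. The excess was 2.89, 2.46 and 2.61 after overexpression and 2.04, 2.14 and 2.36 after knockdown. All 3 groups were separate in this measure, wild type lowest and overexpression highest. The 2 probe sets thus moved apart by 1.11 after overexpression and by 0.64 after knockdown. The sources used here do not say which MSL3 transcripts or exons each one reads.

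**Figure D3:**
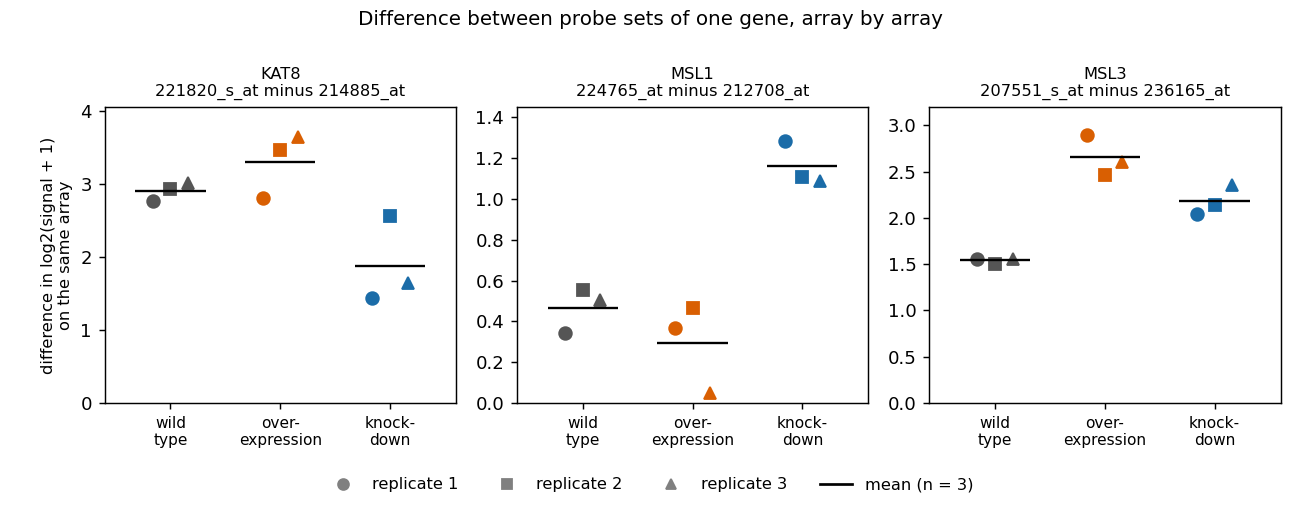
Difference in log2(signal + 1) between 2 probe sets of the same gene on the same array, for KAT8, MSL1 and MSL3, with the mean of each group of 3. Knockdown arrays are lowest for KAT8, at most at 2.56 and with 214885_at under a signal of 188 there, and highest for MSL1, at least at 1.09. For MSL3 all 6 transfected arrays lie above the wild type arrays.

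Counted together, 4 of the 8 tested member probe sets passed after knockdown, 1 higher and 3 lower, beside 15.7% of all probe sets. Of these 4, 2 were those of the targeted gene itself, and of the 6 tested MSL probe sets 2 passed. The median log2 fold change of the 6 was -0.04 after knockdown and 0.08 after overexpression, beside 0.01 over all probe sets in both comparisons. After overexpression 0 of 8 passed in limma, beside 0.476% of all probe sets. With the term for replicate 1, 2 of 8 passed, beside 1109 of all 27307 probe sets tested. Between knockdown and overexpression 3 of 8 passed, both KAT8 probe sets lower and MSL1 224765_at higher, where 8.76% of all probe sets were lower and 5.75% higher. Groups did not overlap at 3 of 8 after overexpression (17.6% of all probe sets). After knockdown they did not overlap at 4 of 8 (35.2%), 1 higher (16.9%) and 3 lower (18.3%), and between knockdown and overexpression at 4 of 8 (33.7%), 1 higher (14.9%) and 3 lower (18.7%).

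The genes that work with or beside the complex were counted from 7 short lists of 26 genes, each gene read at its brightest tested probe set. After knockdown 3 of the 26 rose and 0 fell, where 19.4% of all 12036 genes measured passed, 6.7% higher and 12.7% lower. After overexpression 0 of 26 passed in limma, where 0.631% of genes passed. With the term for replicate 1, 1 of 26 passed, OGT, where 5.34% of genes did. Between knockdown and overexpression 1 of 26 passed, KMT5C, which was higher in knockdown, where 18.4% of genes passed and 6.22% were higher. With the replicate block 5 of 26 passed after knockdown, where 33.4% of all genes passed in the same fit, and 5 of 26 between the transfected groups, where 32.6% did. The median log2 fold change over the 26 was -0.01 after knockdown and 0.04 after overexpression, beside -0.04 and 0.00 over all genes.

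**Figure D4:**
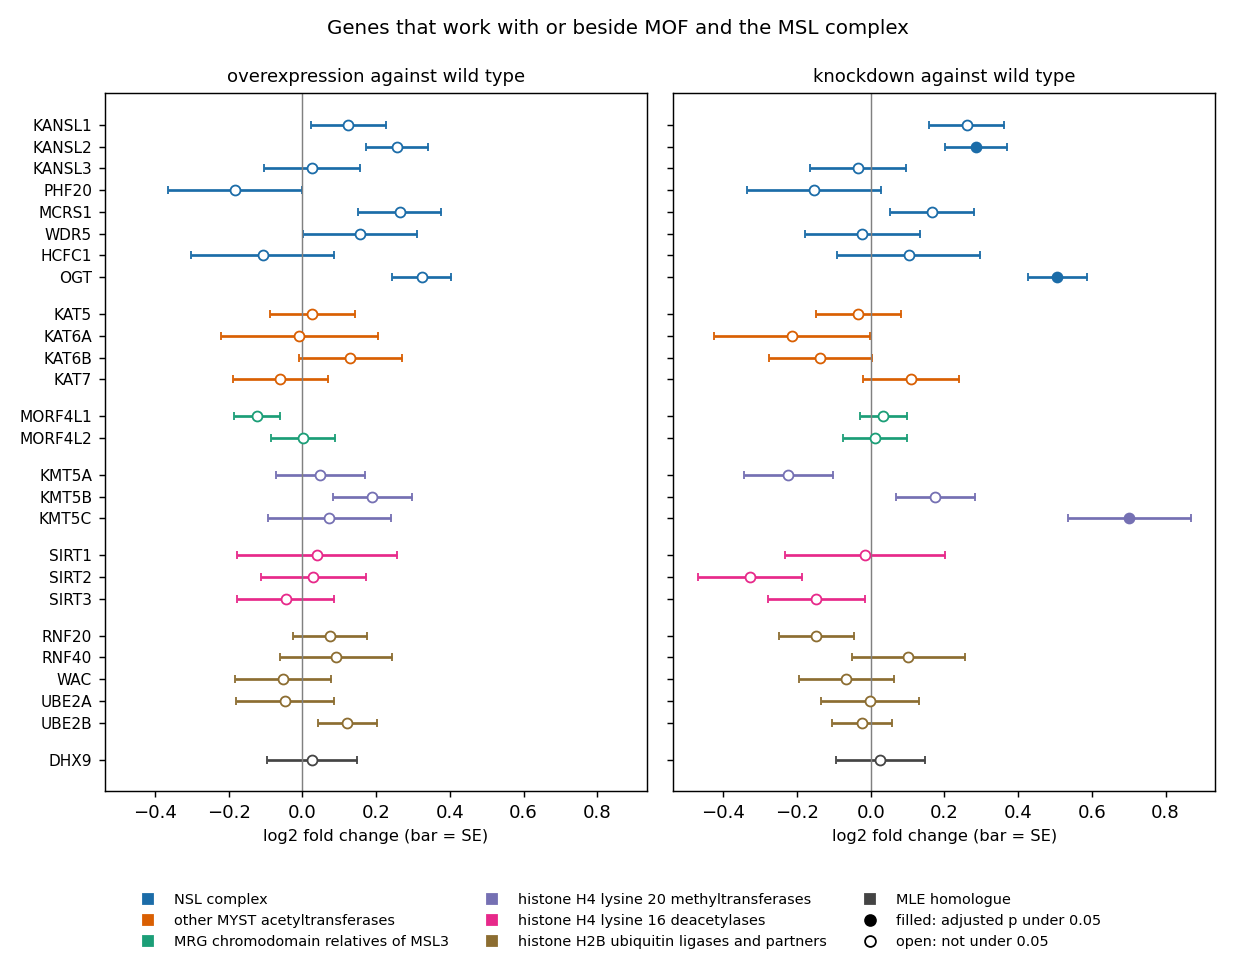
Log2 fold change (limma estimate, bar = SE, n = 3 arrays per group) of 26 genes that act with or beside MOF, after overexpression and after knockdown, filled where the adjusted p is under 0.05. After knockdown OGT, KANSL2 and KMT5C are filled, at 0.51, 0.29 and 0.70, and after overexpression none is.

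In the NSL complex, the other assembly that holds MOF, 2 of 8 subunit genes rose after knockdown and 0 fell, beside 6.7% higher and 12.7% lower of all genes. OGT, the enzyme that adds N-acetylglucosamine to proteins, read 14835.2, 12451.4 and 14563.5 in wild type, 16992, 17737.9 and 17492.4 after overexpression and 20373.3, 19457.1 and 19465.7 after knockdown. The 3 groups were separate, wild type lowest. Its rise after knockdown was 1.42-fold (log2 0.51, SE 0.08, limma adjusted p = 0.00238), and it held whichever of the 6 arrays was left out. Its 5 tested probe sets all had positive values after knockdown, and 3 passed. Those that did not were 207563_s_at (log2 0.40, limma adjusted p = 0.0515) and 212307_s_at (log2 0.23, limma adjusted p = 0.132). The call of 229787_s_at also held whichever array was left out (limma adjusted p up to 0.0489), while that of 207564_x_at (log2 0.43, limma adjusted p = 0.0277) was lost in 5 of 6 such fits, all but that without knockdown replicate 1, reaching an adjusted p of 0.104 without knockdown replicate 2. It was also lost in a fit without a trend (0.0583).

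KANSL2, a core subunit of the NSL complex, was 1.22-fold higher after knockdown (log2 0.29, SE 0.08, limma adjusted p = 0.0412), a call lost in 5 of 6 fits that left out 1 array, all but that without wild type replicate 1, the adjusted p reaching 0.131 without wild type replicate 3. KANSL1, which takes the scaffold's place in the NSL complex, had 0.26 (SE 0.10, limma adjusted p = 0.107), and 0.0245 with the replicate block. PHF20, a reader of methylated lysine, did not pass at its brightest probe set (log2 -0.15, SE 0.18, limma adjusted p = 0.611), but 1 of its 5 tested probe sets, 235389_at, fell by 0.94 (SE 0.17, limma adjusted p = 0.00436), so its probe sets disagreed. KANSL3, MCRS1, WDR5 and HCFC1 did not pass after knockdown against wild type at their brightest probe sets. In knockdown against overexpression 3 NSL probe sets passed, none of them the brightest of its gene: PHF20 235389_at had a log2 value of -1.01 (limma adjusted p = 0.00335), OGT 207564_x_at had 0.42 (limma adjusted p = 0.0312), and WDR5 223308_s_at had -0.45 (limma adjusted p = 0.0306). Leaving out 1 array at a time, the OGT call was lost without overexpression replicate 1, knockdown replicate 2 or knockdown replicate 3, the adjusted p reaching 0.116. The WDR5 call was lost without any array other than overexpression replicate 2, reaching 0.111 without overexpression replicate 3.

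The 4 other acetyltransferases of the MYST family, to which MOF belongs, are KAT5, KAT6A, KAT6B and KAT7. None passed at its brightest probe set in any comparison without the replicate block or the term for replicate 1. Their log2 fold changes after knockdown ran from -0.21 (KAT6A) to 0.11 (KAT7). With the replicate block KAT6A passed after knockdown (limma adjusted p = 0.0434), and KAT6B passed between knockdown and overexpression (log2 -0.27, limma adjusted p = 0.0457). KAT6B also passed there with the term for replicate 1 (limma adjusted p = 0.0431), but not in the fit with neither (0.231). Another KAT6A probe set, 226547_at, fell by 0.29 (limma adjusted p = 0.0457) and lost that call whichever array was left out (adjusted p from 0.0715 to 0.141). Nor did MORF4L1 or MORF4L2, relatives of MSL3 in other complexes, pass at their brightest probe sets, at 0.03 and 0.01 after knockdown. Another MORF4L2 probe set, 243857_at, rose by 0.61 (SE 0.15, limma adjusted p = 0.0191), a call lost without knockdown replicate 1, knockdown replicate 3 or wild type replicate 2, where the adjusted p reached 0.0753.

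Of the 3 methyltransferase genes that act on the H4 lysine methylation read by MSL3, KMT5C rose after knockdown. It read 1024.1, 972.9 and 675.2 in wild type, 1023.1, 880.1 and 870.1 after overexpression and 1381.2, 1466.2 and 1431.2 after knockdown, the knockdown arrays above all others. The rise was 1.63-fold against wild type (log2 0.70, SE 0.17, limma adjusted p = 0.0175) and 1.55-fold against overexpression (log2 0.63, SE 0.17, limma adjusted p = 0.0289). The first call was lost without knockdown replicate 2 (adjusted p = 0.0604) or knockdown replicate 3 (0.0574), and the second without any array of these groups other than overexpression replicate 1 (adjusted p up to 0.0993). KMT5A, the enzyme that places the first methyl group, had -0.22 (SE 0.12, limma adjusted p = 0.238), and its 4 tested probe sets all had negative values after knockdown against wild type with none passing. Against overexpression KMT5A 225094_at was lower in knockdown (log2 -0.47, SE 0.10, limma adjusted p = 0.0129), a call lost only without knockdown replicate 3 (adjusted p = 0.0566) among the fits that left out 1 array. The brightest KMT5A probe set had -0.27 there (limma adjusted p = 0.159, and 0.0474 with the replicate block).

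No deacetylase gene of lysine 16 of histone H4 passed among 3: SIRT1 had -0.02, SIRT2 -0.33 (SE 0.14, limma adjusted p = 0.144) and SIRT3 -0.15 after knockdown. Between knockdown and overexpression SIRT2 was at -0.36 (SE 0.14, limma adjusted p = 0.117, and 0.0477 with the replicate block). None of 5 genes for ubiquitination of histone H2B passed after knockdown (RNF20, RNF40, WAC, UBE2A and UBE2B, from -0.15 to 0.10 at their brightest probe sets). The WAC probe sets disagreed, with -0.07 at the brightest, 222390_at, and positive values at all other tested ones. These were 217742_s_at (0.46, limma adjusted p = 0.0568), 222389_s_at (0.23, 0.0582), 219679_s_at (0.31, 0.177) and 230154_at (0.44, 0.185), none passing. Between knockdown and overexpression RNF20 was at -0.22 (SE 0.10, limma adjusted p = 0.171, and 0.0462 with the replicate block). DHX9, the human homologue of the fly helicase MLE, was at 0.03 after both treatments with an SE of 0.12.

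The genes whose signal ran most like that of each member over the 9 arrays were found by Pearson correlation of log2 signal among 23325 other named probe sets for KAT8 and a like number for the rest. The arrays fall into 3 groups, so these values describe mainly a shared order of the groups and are given without a p. For KAT8 221820_s_at the 5 closest were ALKBH6 (r = 0.996), DPH3 (r = 0.992), C9orf40 (r = 0.991), OLIG1 (r = 0.990) and KRT10-AS1 (r = 0.990). Each had a lower mean in knockdown and a slightly higher mean in overexpression than in wild type. None of the 5 passed after overexpression (limma adjusted p from 0.525 to 0.831). OLIG1, a neural transcription factor gene, had mean signals of 995.6 ± 141.8 (SD, n = 3) in wild type, 1137 ± 84.4 (SD, n = 3) in overexpression and 312.8 ± 28.9 (SD, n = 3) in knockdown.

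For MSL1 224765_at the 3 closest were PCGF1, a Polycomb subunit gene (r = 0.993), IMPDH2, an enzyme of guanine nucleotide synthesis (r = 0.993), and RNASEH2C, a ribonuclease subunit gene (r = 0.991), all highest in knockdown. PCGF1 had means of 3658 ± 408 (SD, n = 3), 3781.5 ± 683 (SD, n = 3) and 6084 ± 817 (SD, n = 3) in wild type, overexpression and knockdown. For MSL2 the 3 closest were FARSA (r = 0.969), LRMDA (r = 0.938) and PARPBP (r = 0.934), and for MSL3 207551_s_at they were HPS4 (r = 0.965), COMMD5 (r = 0.963) and MMP2 (r = 0.954). FARSA, a subunit gene of phenylalanyl-tRNA synthetase, had means of 6261.7 ± 256.8, 7662.8 ± 926.4 and 7716.2 ± 516.9 (SD, n = 3 each) in the same order of groups, and HPS4 had 756.6 ± 94.7, 923.2 ± 155 and 744.3 ± 64.2 (SD, n = 3 each).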

How the data were processed

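Total RNA of 9 samples was biotin-labelled and hybridised to 1 oligonucleotide array each, per the protocols in the labels. The deposited values are the authors' linear signal intensity, 1 value for each probe set. MAS5 is the method named per the submitters' processing notes, with version and parameters not given in the sources used here. The 2% trimmed mean was 1500.2 on every array, which hides any change in the total RNA of a cell. Groups came from sample titles.

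Tests used log2(signal + 1). Without the 62 control probe sets, those whose mean log2 signal reached the median (7.56, a signal of 188) were tested with limma 3.58.1 in R 4.3.3 (lmFit, eBayes with a trend) in 1 fit over 9 arrays (residual degrees of freedom, 6). Tests were two-sided, p-values were adjusted by Benjamini-Hochberg over the 27307 tested, and the threshold was 0.05. The fit was tested on simulated data. Figures were drawn with matplotlib 3.10.9. Folds are 2 to the power of log2 changes, and percentages of wild type are ratios of mean signals.

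Names came from the platform's annotation table, and all 9 member entries matched a RefSeq gene of GRCh38.p14 by Entrez ID. A gene with several tested probe sets is represented in the lists by the one of highest mean signal. Every member probe set was described. Of the lists, genes past the threshold were named, and others by value where probe sets disagreed or none of a list passed. The genes closest by Pearson correlation to the brightest probe set of each member were named, 5 for KAT8 and 3 for each of the rest. The members and lists were chosen with earlier results of these data known. No 2 arrays held identical values.

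Replicate numbers come from the titles. Deviations from group means of same-numbered arrays correlated at 0.106 to 0.362 for knockdown with either other group. All were above the bound of 0.1 used, so those comparisons are also given with the replicate block. For wild type with overexpression they ran from 0.083 to 0.447. Deviations cancel within a group, so a shift shared by the replicate 1 arrays also raises these correlations at the other replicates. The check therefore cannot tell pairing by number from such a shift.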

Additional observations from a re-analysis of the deposited data

How the results depend on the processing

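Other settings tried were a pseudocount of 16, no filter, a filter at the 75th percentile, quantile normalization, eBayes without a trend, the 2 groups alone, a replicate block, a term for replicate 1 and each array left out. The 221820_s_at and 214885_at calls of KAT8 and the 224765_at call of MSL1 after knockdown, against wild type and against overexpression, kept direction and side of the threshold in every fit that tested them. That of MSL3 236165_at after knockdown was lost in 7 of 13. No called member value changed sign. The replicate block changed the calls of KAT8 221820_s_at (adjusted p = 0.0381) and MSL3 236165_at (0.026) after overexpression, and of no other member. Same-numbered arrays of those 2 groups did not all correlate above the bound used for the block.

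The count of member probe sets passing after overexpression was 2 with the replicate block and 2 with the term for replicate 1, against 0. After knockdown it was 2 of 5 with the filter at the 75th percentile, against 4 of 8, since fewer members were tested. It was 3 with any 1 array left out. Over all probe sets, 130 passed after overexpression, 70 without a trend, 1022 with the replicate block, 1109 with the term for replicate 1, 27 from the 2 groups alone, and 25 to 97 with 1 array left out. After knockdown 4289 passed against wild type, 7637 with the block, 7706 with the term for replicate 1 and 2213 to 3653 with 1 array left out. Between knockdown and overexpression it was 3963, 7334, 7425 and 2040 to 3289. The arrays whose loss moved a count most were wild type replicates 2 and 3 and overexpression replicates 1 and 3 after overexpression (29, 50, 71 and 25), wild type and knockdown replicates 2 and 3 after knockdown (2213, 2758, 2419 and 2273), and overexpression replicate 3 with knockdown replicates 2 and 3 between the treated groups (2040, 2246 and 2154). Signal over background limits what the dim probe sets KAT8 214885_at, MSL1 230155_x_at and MSL3 214009_at can show. Alternatives for the differences between probe sets of a gene, chosen after seeing the data, moved each by less than the spread between replicates.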
